A study of Mus musculus with 24 samples.

Results

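The 37 genes of the mouse mitochondrial genome were followed in RNA-Seq libraries of the hippocampus of Aged mice. They were taken as all gene symbols that start with mt-, and they make up 37 of the 49568 symbols counted in each library. Of these, 13 encode proteins, 2 encode ribosomal RNAs and 22 encode transfer RNAs. Poly(A) RNA of 1 male mouse was sequenced per library, with 6 libraries in each of 4 groups. WTSH and KDSH are WT and MSK1 KD mice in standard housing, and WTEE and KDEE are the same genotypes in an enriched environment. All mice were on a C57-Bl/6J background, were behaviourally naïve and were 21 to 23 months old. MSK1 KD mice are homozygous for a D194A knock-in mutation of the endogenous MSK1 gene (Rps6ka5) in every cell, which removes kinase activity, and the mutant and WT lines were kept separately. Enriched mice lived from 18 months of age in large rat cages with a wheel, tubes, toys and a ladder. The study left out WTSH libraries 4 and 7 and KDSH library 6 for low correlation with their groups. It found ribosomal RNA contamination in 4 and 7, and its supplement shows a smaller share of ribosomal RNA reads in 6. WTEE library 10 was kept, although the supplement describes more variation there than in the rest of its group. This left 4 WTSH, 6 WTEE, 5 KDSH and 6 KDEE libraries (21 of 24), and values refer to these 21 unless stated. The comparisons ask whether the level of the mitochondrial transcripts differed with housing, with MSK1 activity, or with both.

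The mitochondrial genome is a small circle that is present in many copies per cell. Its protein-coding genes encode core subunits of respiratory complexes I, III and IV and of the ATP synthase, which neurons depend on for most of their ATP. Both strands are transcribed as long precursors that are cut largely at the transfer RNAs that lie between the other genes, after which mRNA levels depend on the stability of each piece. All proteins that copy, transcribe, process and translate this genome are made from nuclear genes.

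The libraries were deep. Between 27410239 and 71907130 read pairs were counted on genes in the 21 libraries, and 15800187 in the shallowest left-out library. The 9 hippocampal neuron markers, among them Camk2a and Snap25, summed to between 6203 and 9559 CPM (counts scaled to the library's total), against at most 16.8 CPM for 8 skeletal and heart muscle genes. Rps6ka5 lay between 13.7 and 25.5 CPM. A point mutation does not remove the transcript, so this level checks no label. Because this is bulk RNA, fewer cells of a type and less RNA per cell cannot be told apart. Each library comes from a different mouse, so p-values measure the spread between mice. The study allocated housing by cage, with several mice in each, and cages were not given in the labels. A spread between cages is thus not separated from housing. Sequencing lanes were not given in the labels. Mouse numbers 1 to 8 are all in standard housing and 9 to 17 all in enrichment, while 18 to 24 hold both. What this order reflects is not given. Across mice 1 to 17, an effect of the order cannot be told apart from housing.

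Mitochondrial genes took a mean of 4.37% of the counts on genes (SD 0.622, n = 21), with a lowest value of 3.51% and a highest of 6.23%. Protein-coding genes gave 3.70% ± 0.481, ribosomal RNAs 0.666% ± 0.163 and transfer RNAs 0.00562% ± 0.00196 (SD, n = 21). Only part of the genome was measured well, which here means by many counts. Normalized levels of 9 members exceeded 200 CPM in every one of the 21 libraries: mt-Co1, mt-Cytb, mt-Nd1, mt-Nd2, mt-Nd4, mt-Nd5, mt-Nd6, mt-Rnr1 and mt-Rnr2. At the other end, 20 members had at most 3 counts in each of the 21 libraries, 15 of them had 0 counts in all, and 14 had 0 counts in all 24. A total of 22 members had at least 1 count. The 15 members that passed edgeR's filter on low counts were the 9 above, mt-Co2, mt-Co3, mt-Atp6, mt-Nd3, mt-Nd4l and the transfer RNA gene mt-Tp.

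**Figure D1:**
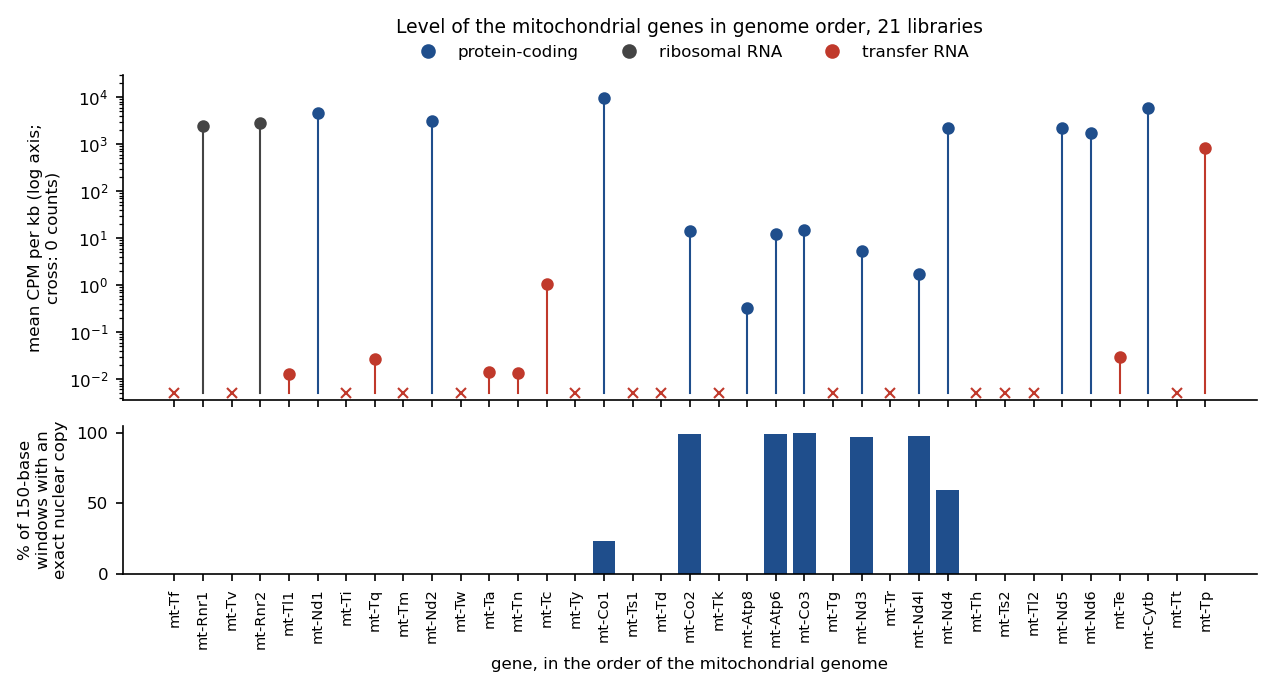
Upper panel: mean CPM per kilobase over 21 libraries (log axis) for the 37 genes in genome order, with crosses for genes at 0 counts. Lower panel: percentage of the 150-base windows of each gene that occur exactly in a nuclear transcript. The genes from mt-Co2 to mt-Nd4l lie far below their neighbours, and all but mt-Atp8 among the protein-coding genes of that stretch have copies for 97.0% or more of their windows.

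Per kilobase, mt-Co1, the catalytic subunit of complex IV, had the highest level at 9445 CPM per kb and 33.3% of all mitochondrial counts. It was followed by mt-Cytb of complex III at 5830 CPM per kb and by the complex I subunits mt-Nd1 (4673 CPM per kb) and mt-Nd2 (3123 CPM per kb). The 16S ribosomal RNA gene mt-Rnr2 had 2746 CPM per kb and the 12S gene mt-Rnr1 2421 CPM per kb. The complex I subunit mt-Nd4 had 2247 CPM per kb, but 59.2% of its windows have an exact nuclear copy, where unique counting can lose reads. Per 1000 windows without a copy its level was 6169 CPM, above mt-Nd1 (5535) and mt-Nd2 (3647) on that scale, so its place in the order is uncertain. mt-Nd5 had 2208 CPM per kb and mt-Nd6 had 1696 CPM per kb. mt-Nd6 is the only protein-coding member on the minus strand. The counting did not use strand, so reads of mt-Nd6 cannot be told apart from antisense RNA of the other strand.

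The remaining protein-coding genes were nearly empty of counts. mt-Co3 and mt-Co2, both core subunits of complex IV, had 14.6 and 14.1 CPM per kb. mt-Atp6 of the ATP synthase had 12.05 CPM per kb. The complex I subunits mt-Nd3 and mt-Nd4l had 5.37 and 1.71 CPM per kb. mt-Co2, mt-Atp6, mt-Co3, mt-Nd3 and mt-Nd4l together held a median of 0.0648% of the mitochondrial counts (range 0.0264% to 0.155%). mt-Atp8, the second ATP synthase subunit, had at most 8 counts in any of the 21 libraries.

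These genes form 1 stretch of the genome, and a nearly identical copy of that stretch lies on chromosome 1. Of the 150-base windows of each gene, the length of a read, an exact match in an annotated nuclear transcript was found for 99.4% in mt-Co2, 99.4% in mt-Atp6, 99.8% in mt-Co3, 97.0% in mt-Nd3 and 98.0% in mt-Nd4l. The share was 59.2% in mt-Nd4 and 23.6% in mt-Co1. It was 0% in mt-Nd1, mt-Nd2, mt-Nd5, mt-Nd6, mt-Cytb, mt-Rnr1 and mt-Rnr2, and also in mt-Atp8. The authors counted unique alignments only. The comparison was made with annotated transcripts, not with a genome, and the part of the copies in the low counts was not tested.

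The copies are 7 unprocessed pseudogenes between chr1:24611535 and chr1:24616197 (GRCm38), all on the minus strand. Gm28661 is identical to mt-Co2 over 681 bases, Gm10925 to mt-Atp6 over 678, Gm28437 to mt-Co3 over 783, Gm10222 to mt-Nd4l over 294 and Gm28439 to mt-Nd4 over its first 876. Over the 4140 aligned bases of the block, only 2 substitutions were found, and they are shown because they are the only differences between gene and copy within the aligned bases. The first is T3C in mt-Nd3 against Gm28438, and the second is A1066T in mt-Co1 against Gm29216. Positions count from 1 at the first base of the mitochondrial gene, its base comes first, and capitals mark the differing base.
mt-Nd3, chrM:9459-9491, plus strand: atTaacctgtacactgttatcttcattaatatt
Gm28438, same positions: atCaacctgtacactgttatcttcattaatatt
mt-Co1, chrM:6390-6423, plus strand: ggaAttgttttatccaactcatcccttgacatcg
Gm29216, same positions: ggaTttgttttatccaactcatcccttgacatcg

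Except for mt-Nd4 and mt-Co1, mitochondrial gene and copy had counts of the same order in the same library. mt-Co2 had between 145 and 743 counts and Gm28661 between 144 and 826, and mt-Co2 took between 47.4% and 53.2% of the sum of both. For mt-Co3 with Gm28437 the share was 42.7% to 51.6%, and for mt-Atp6 with Gm10925 it was 33.9% to 40.7%. mt-Nd4l held 31.1% to 65.0% and mt-Nd3 56.5% to 78.6% of the sum with their copies, on few counts. mt-Nd4 and mt-Co1, whose copies cover only part of the gene, held lowest shares of 99.69% and 99.86%. Although the counts themselves differed several-fold between libraries, the shares of mt-Co2, mt-Co3 and mt-Atp6 stayed within these ranges. Summed over the 7 copies, the level was 18.3 to 98.0 CPM over the 21 libraries, a 5.34-fold range, and 18.3 to 92.4 CPM inside KDSH alone, a 5.04-fold range. Levels and fold changes of mt-Co2, mt-Co3, mt-Atp6, mt-Nd3 and mt-Nd4l are uncertain for this reason, whereas mt-Nd4 and mt-Co1 also hold windows without a copy.

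**Figure D2:**
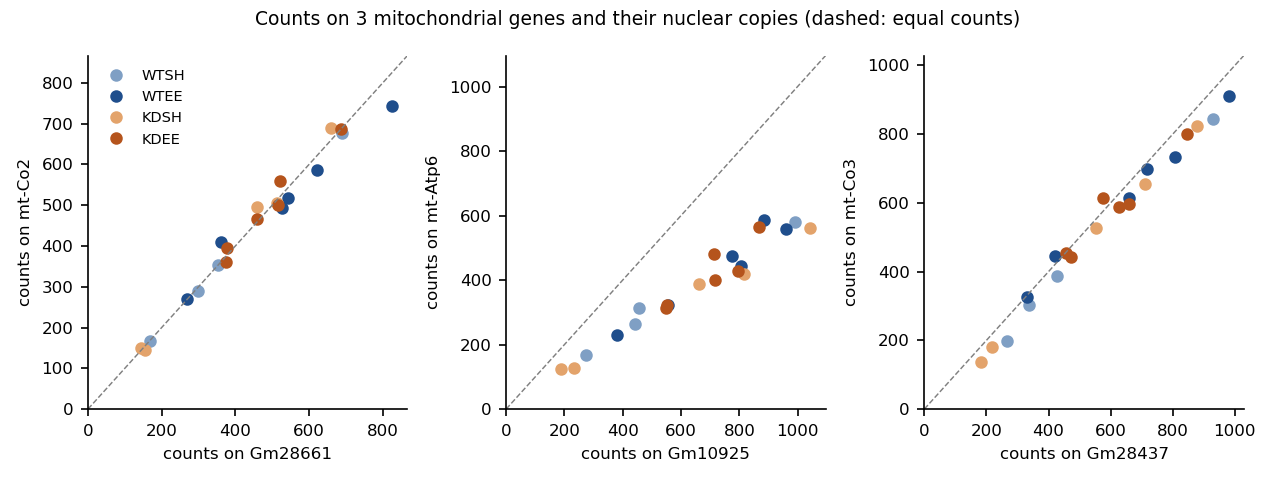
Counts on mt-Co2, mt-Atp6 and mt-Co3 (vertical axes) against counts on their chromosome 1 copies (horizontal axes), 1 point per library, 21 libraries coloured by group. The dashed line marks equal counts. mt-Co2 and mt-Co3 run close to the line and mt-Atp6 lies below it in all 4 groups.

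Overlapping genes are a further limit. mt-Atp8 and mt-Atp6 share 43 bases, mt-Nd4l and mt-Nd4 share 7, and mt-Nd5 and mt-Nd6 share 14 on opposite strands. The first of these overlaps is shown because it holds the end of mt-Atp8 and the start of mt-Atp6 in different reading frames, with the shared bases in capitals. How reads on shared bases were assigned is not given beyond the count of ambiguous pairs.
mt-Atp8 and mt-Atp6, chrM:7912-7984, plus strand: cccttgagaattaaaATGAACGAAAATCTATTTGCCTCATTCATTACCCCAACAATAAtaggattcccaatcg

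Of the 22 transfer RNA genes, 15 had 0 counts in all 21 libraries, which is at or under a floor of 3 counts per library and covers counting error only. mt-Tp, the transfer RNA gene for proline, was the exception. It had between 1073 and 4192 counts, or a mean of 56.1 CPM and 0.126% of mitochondrial counts. The gene has 67 bases, fewer than the 150 of a read, and the counting did not use strand. Its counts thus cannot be told apart from longer RNA of either strand and are no measure of the mature transfer RNA. The sequence of mt-Tp is shown because it is the only member of its class with substantial counts. It is the last gene of the annotation on the minus strand, beside the control region from which transcription of the genome starts.
mt-Tp, chrM:15356-15422, minus strand: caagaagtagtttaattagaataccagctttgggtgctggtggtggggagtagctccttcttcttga
By mean CPM mt-Tc came next, with 1 to 7 counts per library, and then mt-Te, with at most 1 count in any of the 21, and no transfer RNA gene other than mt-Tp and mt-Tc had more than 2 counts in any of the 24 libraries. Normalized mt-Tp was 48.1 to 86.6 CPM in WTSH, 20.9 to 70.7 CPM in WTEE, 40.5 to 69.2 CPM in KDSH and 23.0 to 80.8 CPM in KDEE. The 4 groups overlapped, and the lowest values lay in WTEE and KDEE.

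The share of mitochondrial counts was higher in the enriched groups, with overlap. In WTSH it was 3.89%, 4.68%, 4.24% and 3.87% (mice 2, 5, 19 and 23), a mean of 4.17% ± 0.381 (SD, n = 4). In KDSH it was 3.73%, 3.83%, 3.64%, 4.33% and 3.51% (mice 1, 3, 8, 18 and 24), a mean of 3.81% ± 0.315 (SD, n = 5). In WTEE the lowest value was 4.20%, the median 4.48% and the highest 6.23%, with a mean of 4.77% ± 0.765 (SD, n = 6). In KDEE the lowest was 3.72%, the median 4.68% and the highest 4.96%, with a mean of 4.58% ± 0.452 (SD, n = 6). Within KDEE, mouse 20 alone fell inside the range of KDSH, and the other libraries lay above every KDSH library. Within WTEE, mouse 10 alone lay above 5%. Mouse numbers follow housing up to 17. Among mice 18 to 24, the share in standard housing was 4.33%, 4.24%, 3.87% and 3.51% (mice 18, 19, 23 and 24). Enriched mice 20, 21 and 22 had 3.72%, 4.25% and 4.71%. No test was made on this share, because it is a sum over the chosen genes.

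**Figure D3:**
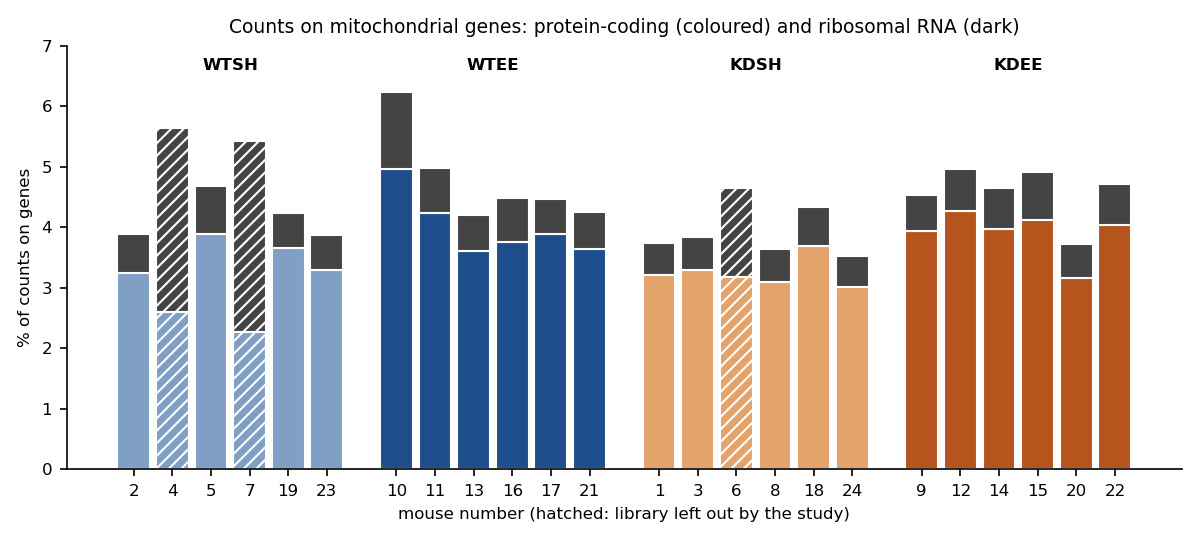
Percentage of counts on genes that fell on mitochondrial protein-coding genes (coloured) and mitochondrial ribosomal RNA genes (dark), 1 bar per library in 4 groups, with the 3 left-out libraries hatched. Among the other 21 bars the total ran from 3.51% to 6.23%, and the dark part was largest in the 3 hatched bars.

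Against KDSH, the mean share in KDEE was higher by 0.771 percentage points, and against WTSH the mean share in WTEE was higher by 0.598. KDSH minus WTSH gave -0.360 points, and WTEE minus KDEE gave 0.186. Without WTEE 10 the difference between WTEE and WTSH was 0.306 points and that between WTEE and KDEE was -0.106. Without WTSH 5 the difference between KDSH and WTSH was -0.189, and without KDEE 20 that between WTEE and KDEE was 0.0131. With all 24 libraries WTEE minus WTSH was 0.143 and KDSH minus WTSH was -0.676. The pooled SD within groups was 0.530 points.

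No mitochondrial gene was called in any of the 7 comparisons by the quasi-likelihood test of edgeR, where a call needs a log2 fold change of more than 0.38 in either direction with a Benjamini-Hochberg adjusted p below 0.05. Over all 20187 genes tested the share called was 0% in 6 comparisons and 0.00495% (1 gene) for enriched against standard housing over both genotypes. The Wald test of DESeq2 also called 0 members. It called 0.00529% of all genes for WTEE against WTSH, 0.0371% for KDEE against KDSH, 0.312% for WTEE against KDEE, 0.0529% for the interaction, 0.109% for housing over both genotypes and 0% for the other comparisons.

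In MSK1 KD mice the mean level of each measured mitochondrial mRNA was higher with enrichment, and none was called. No adjusted p was under 0.05 in edgeR or DESeq2 with the 21 libraries. In DESeq2 without WTEE 10, a library of neither group, 4 members had an adjusted p under 0.05 (smallest 0.0152, mt-Nd1), all below the fold threshold. The share of all genes at that cut in this fit is not given here, so the count has no background beside it. For mt-Co1, normalized CPM was 12973, 13054, 12383, 14494 and 11995 in KDSH (mice 1, 3, 8, 18 and 24). In KDEE the lowest value was 12623, the median 15690 and the highest 16849. All KDEE libraries but 1 lay above every KDSH library, and the exception, KDEE 20, fell within the KDSH range. The log2 fold change was 0.25 ± 0.08 (SE; edgeR adjusted p = 0.359). An exact two-sided permutation test of log2 levels gave p = 0.0195 (n = 6 and 5, smallest possible 0.00216), or 0.0779 after adjustment over the 4 single-gene tests made, 1 for the smallest edgeR p in each pair of groups. Each gene was thus picked among the tested members in the same libraries that were permuted. The adjustment does not cover this choice, so the permutation p-values of single genes can be too low.

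The other measured mRNAs behaved alike in this comparison. mt-Nd1 was 3429 to 4179 CPM in KDSH and 3559 to 5199 CPM in KDEE, with a log2 fold change of 0.33 ± 0.13 (SE; edgeR adjusted p = 0.383). mt-Nd4 was 2370 to 2807 CPM in KDSH and 2448 to 3675 CPM in KDEE, with a log2 fold change of 0.33 ± 0.12 (edgeR adjusted p = 0.383). mt-Cytb was 5164 to 6301 CPM in KDSH and 5246 to 7771 CPM in KDEE, with a log2 fold change of 0.28 ± 0.12 (edgeR adjusted p = 0.397). For each of the 7 measured mRNAs, 5 KDEE libraries lay above the highest KDSH library and the remaining one, KDEE 20, did not. For mt-Rnr1 and mt-Rnr2 only 4 did. The share of all genes with such a separation was not counted, so it is not known how common this is.

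Over the 15 tested members, 15 had a higher mean in KDEE than in KDSH, the median log2 fold change was 0.29, and 7 had an unadjusted p under 0.05, all of them higher (46.7%). Over all genes tested the median was 0.00 (0.00163) and 50.4% were above 0, and 5.64% were higher and 5.98% lower at the same unadjusted p. The 15 include mt-Tp and the genes of uncertain level with nuclear copies. The 9 well measured genes alone were all higher, with a median of 0.28. The 7 at an unadjusted p under 0.05 are mt-Co1, mt-Cytb, mt-Nd1, mt-Nd2, mt-Nd4, mt-Nd5 and mt-Nd6, with log2 fold changes between 0.23 and 0.33. They share libraries and a genome and move together from library to library, so they are not 7 independent observations. The number was 4 without KDSH 24 and 4 without KDEE 12. Relative to the summed mitochondrial counts, a scaling that removes a shared change by construction, the median of the members was 0.02 and 0 of 15 had an unadjusted p under 0.05, while the median of all genes moved to -0.26.

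Levels of other cell types stood as follows in the same libraries. For red blood cells, the summed level of 5 of 5 listed genes was 38.1 to 76.6 CPM in KDSH and 74.8 to 238 CPM in KDEE, and 57.3 to 73.5 CPM in WTSH and 56.4 to 402 CPM in WTEE. The 5 oligodendrocyte genes summed to 4333 to 6325 CPM in KDSH and 5444 to 6559 CPM in KDEE. The 9 neuron markers summed to 8696 to 9147 CPM in KDSH and 8239 to 9315 CPM in KDEE. The 9 choroid plexus genes summed to 195 to 305 CPM in KDSH and to 323 to 13058 CPM in KDEE (median 360). In WTSH they summed to 196 to 6276 CPM and in WTEE to 239 to 8065 CPM. Over the 21 libraries, Enpp2 of this list had a median of 233 CPM and a highest value of 3432 CPM. Ttr had a median of 64.1 CPM and a highest value of 8911 CPM. Read pairs on no feature made up 9.81% to 12.3% of all pairs in KDSH. In KDEE they made up 8.41% to 9.62% in 5 libraries, below every KDSH library, and 10.9% in KDEE 20, the library that was also the exception for the mitochondrial mRNAs. WT mice did not differ in this way. Their mean was 11.5% in WTSH (9.52% to 15.7%) and 11.5% in WTEE (10.2% to 13.5%). The part of these values in the mitochondrial levels was not tested.

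**Figure D4:**
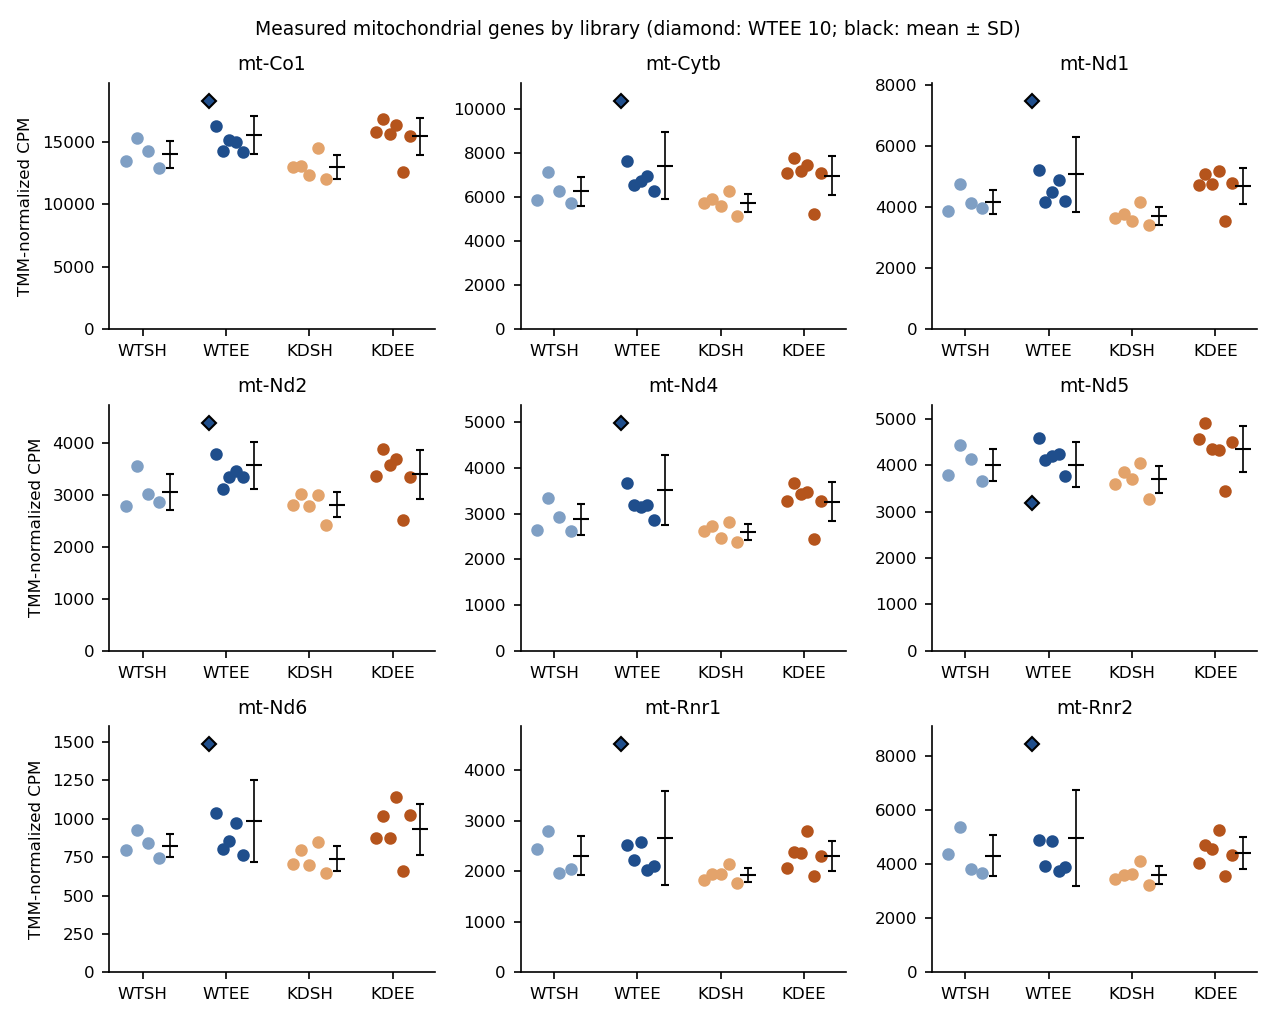
TMM-normalized CPM of the 9 well measured mitochondrial genes, 1 point per library in 4 groups, with the mean and SD in black beside the points and the library WTEE 10 as a diamond. WTEE 10 is the highest of 21 libraries for every gene shown but mt-Nd5, where it is the lowest.

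In WT mice the difference had the same direction, and its size depended on 1 library. mt-Nd4 was 2634, 3343, 2916 and 2617 CPM in WTSH (mice 2, 5, 19 and 23), and in WTEE its lowest value was 2859, its median 3190 and its highest 4982. The groups overlapped, and only 2 WTEE libraries lay above every WTSH library. The log2 fold change was 0.29 ± 0.13 (SE; edgeR adjusted p = 0.651), and the exact two-sided permutation p was 0.124 (n = 6 and 4, smallest possible 0.00476, adjusted over the 4 tests 0.165). Without WTEE 10 the log2 fold change was 0.16 ± 0.10 (SE; edgeR adjusted p = 1).

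Of the 15 members tested, 13 were higher in WTEE than in WTSH and 1 (mt-Nd4, 6.67%) had an unadjusted p under 0.05 in edgeR, against 3.95% of all genes higher and 2.6% lower at that p (6.55% in all). DESeq2 gave 4. The median log2 fold change of the members was 0.24, and that of all genes was 0.01, with 51.5% of all genes above 0. Without WTEE 10 the median of the members was 0.10, 12 of 15 were higher and 0 had an unadjusted p under 0.05. mt-Nd5 had a log2 fold change of 0.00 ± 0.10 (0.00483), or 0.07 ± 0.09 without WTEE 10. mt-Rnr1 and mt-Rnr2 had log2 fold changes of 0.21 ± 0.17 and 0.20 ± 0.18, and of -0.01 ± 0.11 and -0.01 ± 0.12 without WTEE 10. Structural RNA genes took 0.353% to 1.38% of the counts in WTEE. In WTSH 5, 23 and 19 they took 0.0337%, 0.0486% and 0.121%, below every WTEE library, and in WTSH 2 they took 2.49%. The part of these RNAs in the mitochondrial levels was not tested.

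**Figure D5:**
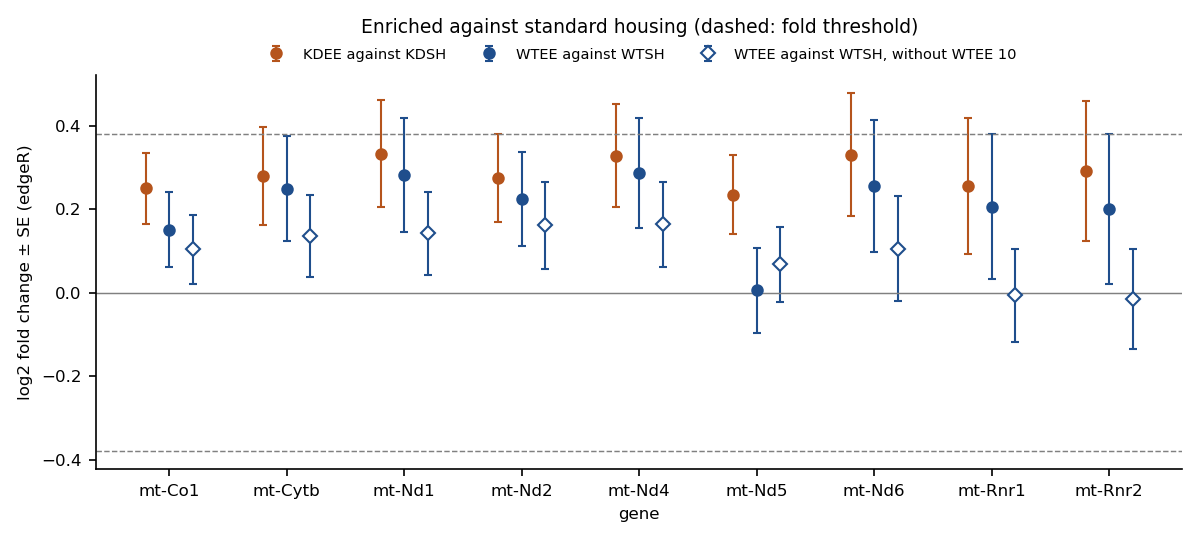
edgeR log2 fold changes with their standard errors for the 9 well measured genes: KDEE against KDSH, WTEE against WTSH, and WTEE against WTSH without WTEE 10. Dashed lines mark the fold threshold. KDEE against KDSH lies between 0.23 and 0.33 for all 9, and without WTEE 10 the WT values lie between -0.01 and 0.16.

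The effect of enrichment was not shown to differ between genotypes. In the interaction, the difference of both log2 fold changes (WT minus MSK1 KD), 0 of 15 members had an unadjusted p under 0.05 in edgeR and 0 in DESeq2, against 3.26% of all genes in edgeR (2.29% higher, 0.971% lower). The smallest p was that of mt-Nd5, at -0.23 ± 0.14 (SE; edgeR adjusted p = 1). For mt-Co1 the difference was -0.10 ± 0.12 (SE) and for mt-Cytb it was -0.03 ± 0.17 (SE). The standard errors of the 9 measured genes ran from 0.12 to 0.24, against log2 fold changes with enrichment of at most 0.33, so only large differences between genotypes were detectable at this number of mice.

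Averaged over genotypes, 14 of 15 members were higher with enrichment, against 51.9% of all genes. The median log2 fold change was 0.26 against 0.01 over all genes. mt-Nd4 (0.31 ± 0.09), mt-Nd1 (0.31 ± 0.09), mt-Nd2 (0.25 ± 0.08), mt-Co1 (0.20 ± 0.06), mt-Cytb (0.26 ± 0.09), mt-Nd6 (0.29 ± 0.11) and mt-Nd3 (0.42 ± 0.19) had an unadjusted p under 0.05. This is 46.7% of the members, against 9.78% of all genes higher and 9.13% lower at that p. Their edgeR adjusted p lay between 0.190 and 0.248, and mt-Nd3 is among the genes with a nuclear copy. The smallest DESeq2 adjusted p was 0.0591, for mt-Co1. In DESeq2 9 of 22 tested members had an unadjusted p under 0.05, against 4279 of 37779 genes (2329 higher, 1950 lower). In DESeq2 5 members had an adjusted p under 0.05 on all 24 libraries (smallest 0.00587, mt-Co1) and 5 without WTEE 10 (smallest 0.0220, mt-Nd4), below the fold threshold in each case. The share of all genes at that cut in these fits is not given here, so these counts have no background beside them. The comparison of housing over genotypes uses the libraries of both comparisons above and is not independent of them.

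Between genotypes no member passed the test. In standard housing, mt-Rnr1 was 1956 to 2795 CPM in WTSH and 1771 to 2144 CPM in KDSH. All KDSH libraries lay within or below the WTSH range, and the log2 fold change was -0.26 ± 0.18 (SE; edgeR p = 0.167, adjusted p = 1; exact permutation p = 0.0635, n = 5 and 4, smallest possible 0.00794, adjusted over the 4 tests 0.127). The 9 well measured genes were all lower in KDSH, by log2 fold changes between -0.26 and -0.11, and 0 of 15 members had an unadjusted p under 0.05 in either tool, against 1% of all genes (0.5% higher, 0.5% lower). Without WTEE 10 the number was 2. The median over the members was -0.12, and over all genes it was -0.00014 (0.00 after rounding). Scaling to the summed mitochondrial counts centres the members near 0 by construction (median 0.02) and moved the median of all genes to 0.14.

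In enriched mice, mt-Rnr1 was 2015 to 4510 CPM in WTEE and 1907 to 2793 CPM in KDEE, with a log2 fold change of 0.21 ± 0.15 (SE; edgeR p = 0.195, adjusted p = 0.957; exact permutation p = 0.522, n = 6 and 6, smallest possible 0.00216, adjusted 0.522). Of the 15 members, 9 were higher in WTEE and 0 had an unadjusted p under 0.05 in either tool, against 4.99% of all genes in edgeR (3.21% higher, 1.77% lower). Of all genes 49.5% were higher in WTEE. The median of the members was 0.05, and it turned to -0.05 without WTEE 10. Over both housings, MSK1 KD against WT had 0 members with an unadjusted p under 0.05 in edgeR, against 1.9% of all genes (0.758% higher, 1.14% lower). In DESeq2 it was 1 of 22 tested members, against 643 of 37779 genes. The median was -0.06.

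Library WTEE 10 differed from the other libraries in the mixture of its mitochondrial RNAs as well as in their amount. mt-Rnr1 (4510 CPM) and mt-Rnr2 (8416 CPM) were 1.97 and 1.98 times the mean of the other WTEE libraries. mt-Nd1 was 1.62 times that mean, mt-Nd4 1.55 times, mt-Cytb 1.51 times and mt-Co1 1.22 times. mt-Nd5 went the other way, at 3179 CPM or 0.761 times, the lowest of the 21 libraries. Counts on mt-Nd5 per count on mt-Nd1 were 0.425 in WTEE 10 and 0.830 to 1.04 in the other 20 libraries. Both genes encode complex I subunits. In the same library the 9 neuron markers summed to 6203 CPM, the lowest of the 21, and Rps6ka5 was also lowest at 13.7 CPM. Its choroid plexus genes summed to 6468 CPM. Of the microglia genes, C1qa was at 147 CPM (median of the 21 libraries 68.5), while Cx3cr1 was the lowest of the 21 at 51.6 CPM (median 59.5). The part of these levels in the mitochondrial mixture was not tested.

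In the other 20 libraries the mixture of mRNAs was steady. As a share of the counts on the 7 measured mRNAs, mt-Co1 took 38.6% to 41.4% and mt-Cytb 17.2% to 18.1% of them. mt-Nd5 took 10.4% to 11.9% of them, and 6.34% in WTEE 10. Over all 21 libraries the coefficient of variation of these shares was 2.64% for mt-Co1, 3.63% for mt-Cytb, 6.24% for mt-Nd1, 8.57% for mt-Nd6 and 10.2% for mt-Nd5. That of the CPM of the same genes over the same libraries was 11.2%, 17.1%, 19.9%, 21.6% and 11.5%. Levels thus varied more from mouse to mouse than proportions for the first 4, and by about as much for mt-Nd5, whose share varied by 3.10% without WTEE 10. The ratio of mt-Rnr2 to mt-Rnr1 was 1.76 to 1.97 in the 21 libraries and 1.76 to 1.90 in the 3 left-out ones.

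The 3 left-out libraries stood apart in the ribosomal RNA members. Mitochondrial ribosomal RNA took 3.05% of the counts on genes in WTSH 4, 3.16% in WTSH 7 and 1.46% in KDSH 6, against 0.511% to 1.28% in the other 21. It made up 54.1%, 58.3% and 31.6% of the mitochondrial counts in these libraries and 12.9% to 20.5% in the others. In CPM without TMM normalization, mt-Rnr2 was 19448 in WTSH 4 and 20745 in WTSH 7, which is 4.77 and 5.09 times the median of the kept WTSH libraries. mt-Rnr1 was 4.99 and 4.93 times its median. In KDSH 6, mt-Rnr2 was 2.69 times and mt-Rnr1 2.64 times the median of the kept KDSH libraries. Cytosolic and other structural RNA genes took 22.8% of the counts in WTSH 4, 22.6% in WTSH 7 and 5.50% in KDSH 6, against 0.0330% to 2.49% in the 21.

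The 7 measured mRNAs were below all of the 21 libraries in WTSH 4 and WTSH 7. In KDSH 6 mt-Co1 and mt-Nd5 were below all 21, while mt-Nd1, mt-Nd2, mt-Nd4, mt-Nd6 and mt-Cytb lay within their range, at 1.04 to 1.11 times the median of the kept KDSH libraries. mt-Co1 was 9799 CPM in WTSH 4 and 8506 CPM in WTSH 7, below the lowest of the 21 libraries (12249 CPM), and 12139 CPM in KDSH 6. Per 100 counts on nuclear protein-coding genes, the mitochondrial mRNAs were 3.502 in WTSH 4, 3.06 in WTSH 7 and 3.59 in KDSH 6, against 3.22 to 5.51 in the 21 libraries. WTSH 4 and KDSH 6 then fell within that range and WTSH 7 stayed below it. With all 24 libraries in the edgeR fit, mt-Rnr1 and mt-Rnr2 turned to log2 fold changes of -1.27 ± 0.45 and -1.26 ± 0.45 (SE) for WTEE against WTSH (adjusted p = 0.246 for both). The 7 measured mRNAs kept their direction, with mt-Co1 at 0.21 ± 0.08 (adjusted p = 0.246).

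Genes of the nucleus that serve the mitochondrial genome were read from lists of 145 genes, of which 144 were tested and 0 were called in any comparison by edgeR. For housing over both genotypes, 29 were higher and 3 lower at an unadjusted p under 0.05, against 9.78% and 9.13% of all genes. Of the 29, 24 were among the 77 tested mitochondrial ribosomal proteins. Their median log2 fold change was 0.11, with 73 of 77 above 0, against 51.9% of all genes. Mrps33, of the small subunit, had the smallest p (0.23 ± 0.08, SE; edgeR adjusted p = 0.2004), and Mrpl3, the most highly counted, had a log2 fold change of 0.00 ± 0.03 (-0.00389). For WTEE against WTSH 11 of the 77 were higher at that p, against 3.95% of all genes. There 75 of 77 were above 0, against 51.5% of all genes, with a median of 0.16. For KDEE against KDSH 1 was higher at that p, against 5.64% of all genes. In that comparison 72 of 77 were above 0, against 50.4% of all genes, with a median of 0.10. In the interaction 0 of the 77 had an unadjusted p under 0.05, so a difference between genotypes was not shown.

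The other lists showed fewer. Among the 16 genes of transcription and replication, 1 was higher and 0 lower with housing at an unadjusted p under 0.05, and Polg, the catalytic subunit of the mitochondrial DNA polymerase, had a log2 fold change of -0.14 ± 0.07 (edgeR adjusted p = 0.273). Mterf1b, a paralogue of the termination factor Mterf1a, had the smallest p of that list, for KDSH against WTSH (0.48 ± 0.17, SE; edgeR adjusted p = 1). Among the 19 genes of RNA processing, 2 were higher, with Hsd17b10, a subunit of the RNase P complex, at 0.22 ± 0.08 (edgeR adjusted p = 0.214) and Fastk, the most highly counted, at 0.06 ± 0.04. Of the 17 transfer RNA synthetases 1 was higher and 3 lower. Cars2, the cysteine enzyme, had the smallest p (-0.15 ± 0.05, SE; edgeR adjusted p = 0.196). Lars2, the leucine enzyme, had the most counts (-0.27 ± 0.68, SE) and is also on the list of structural RNA genes. Of the 10 translation factors 1 was higher, Mtrf1 (0.15 ± 0.06, SE), and Tufm, the elongation factor, was at 0.04 ± 0.05. Of the 5 regulators of biogenesis 0 passed an unadjusted p of 0.05, with Esrra at 0.06 ± 0.05 and Ppargc1b at -0.36 ± 0.19 (edgeR adjusted p = 0.286).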

How the data were processed

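Files of 24 libraries, 1 per mouse, were used, with groups taken from the labels. The authors trimmed reads with Skewer, aligned them to GRCm38 with STAR 2.5 and counted unique alignments with HTSeq 0.6.1p1 without regard to strand, and they deposited 1 raw count of read pairs for every symbol. HTSeq's totals of pairs on no feature (8.41% to 33.0% of all) and on several features (4.14% to 17.2%) were left out. Depth is given in the report, and PCR copies cannot be told apart, so floors cover counting error only.

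The members and the gene lists were chosen with earlier results of these data known. edgeR 4.0.16 in R 4.3.3 was fitted to the 21 libraries (TMM, default filter, 4 groups in 1 model), with Benjamini-Hochberg adjustment over all genes, after being tested on simulated counts. DESeq2 1.42.0 was the main alternative. The contrasts were the 4 pairs of groups, their interaction, housing and genotype. Levels of the members in CPM are TMM-normalized where groups or the 21 kept libraries are compared with each other. They are plain per kilobase, in means over all 21 libraries and for the left-out libraries. Levels of marker genes, Rps6ka5 and the nuclear copies are plain CPM throughout, also where groups are compared. Single genes, picked by the smallest edgeR p in each pair of groups, were compared with exact permutation tests of log2 levels in the same libraries. Positions and sequences come from GENCODE M21 (GRCm38), and copies were found with BLAST 2.17.0 among its transcripts. Named were all protein-coding and ribosomal RNA members, the 3 transfer RNA genes with most counts, and from each list its most highly counted gene and its smallest p. Ttr, Enpp2, Camk2a and Snap25 were named as members of marker lists.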

Additional observations from a re-analysis of the deposited data

Results flagged for a closer look

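Group values were screened for a library whose gap to its nearest neighbour is large against the range of its group. Of 76 group values 13 stood out, and chance alone gives about 1 in 20. WTEE 10 was far above the other WTEE libraries for normalized mt-Rnr1 (4510 CPM, next 2584), mt-Rnr2 (8416 CPM, next 4872), mt-Nd1 (7481 CPM, next 5225) and mt-Cytb (10352 CPM, next 7653). Its share of mitochondrial ribosomal RNA (1.28% of counts on genes, next 0.738%) also stood out, and its ratio of mt-Nd5 to mt-Nd1 (0.425, next 0.865) was far below the rest. KDEE 20 was far below the other KDEE libraries for normalized mt-Nd1 (3559 CPM, next 4726), mt-Co1 (12623 CPM, next 15455), mt-Nd4 (2448 CPM, next 3269) and mt-Cytb (5246 CPM, next 7080). The same held for its share of mitochondrial counts (3.72%, next 4.54%) and of mitochondrial mRNA counts (3.15%, next 3.93%). In KDSH 18 the share of mitochondrial ribosomal RNA (0.645%, next 0.549%) stood above its group. These values share libraries and are not independent of each other.

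Libraries that the study did not use carried more mitochondrial ribosomal RNA than any kept library of their group: 3.05% of counts on genes in WTSH 4 and 3.16% in WTSH 7 against at most 0.799%, and 1.46% in KDSH 6 against at most 0.645%.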

How the results depend on the processing

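The number of mitochondrial genes past both thresholds was 0 under each alternative run: the Wald test of DESeq2, other size factors, total counts, nuclear genes only, scaling to mitochondrial counts, no or a stricter filter, all 24 libraries, a robust fit, only the groups compared, edgeR with no fold threshold, each library left out, and DESeq2 on all 24 libraries or without WTEE 10, the last 2 chosen after seeing the data. By adjusted p alone, these last 2 fits did have members under 0.05: 5 for housing on all 24 libraries, and without WTEE 10 5 for housing and 4 for KDEE against KDSH. The shares of all genes at that cut in these 2 fits are not given here. The median log2 fold change for KDEE against KDSH moved to 0.0178 when scaled to mitochondrial counts, which by construction removes a shared change. With all 24 libraries the exact permutation p of mt-Nd4 for WTEE against WTSH was 0.0433 without adjustment. That gene had been picked by its edgeR p in the 21 kept libraries, so this p can be too low. With each library left out in turn, the median ranged from 0.249 to 0.350 for KDEE against KDSH, from 0.105 to 0.305 for WTEE against WTSH, from 0.218 to 0.299 for housing, from -0.158 to -0.0700 for KDSH against WTSH and from -0.0548 to 0.0983 for WTEE against KDEE. The number of members at an unadjusted p under 0.05 for WTEE against WTSH was 0 without WTEE 10, WTEE 11, WTSH 2 or WTSH 23, and 4 without WTEE 13, WTSH 5 or KDEE 20. No paired analysis was possible because mouse numbers run from 1 to 24 and none occurs in 2 groups. Nearly all windows of mt-Co2, mt-Atp6, mt-Co3, mt-Nd3 and mt-Nd4l match an annotated nuclear transcript exactly, and counting by unique alignment can lose reads there. How far this lowered the counts of these genes was not tested.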
